A study of Mus musculus with 24 samples.

Results

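The proteasome genes of mouse bone marrow macrophages and of the osteoclasts formed from them were described gene by gene. The set was taken as every protein-coding gene with a symbol of Psma, Psmb, Psmc, Psmd, Psme, Psmf or Psmg followed by a digit, which gave 50 of the 54532 genes in the table (22046 of them protein-coding). Of these, 49 passed the filter on low counts and were tested. Psmb11, the catalytic subunit of cortical thymic epithelium, had 7 counts over all 24 libraries and was not tested. Psmc3ip also fits the naming rule, but it encodes a meiotic recombination factor and not a proteasome protein, and it is kept apart below.

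The proteasome is the barrel that degrades proteins tagged with ubiquitin. Its 20S core is built of outer alpha rings and inner beta rings, the cutting is done by the beta subunits Psmb6 (caspase-like), Psmb7 (trypsin-like) and Psmb5 (chymotrypsin-like), and a 19S cap of ATPase and non-ATPase subunits binds, unfolds and feeds the substrate. In immune cells, and in other cells under interferon, Psmb9, Psmb10 and Psmb8 replace Psmb6, Psmb7 and Psmb5 in newly assembled cores, which are then called immunoproteasomes and cut peptides that suit major histocompatibility complex (MHC) class I. Macrophages hold immunoproteasomes without stimulation, and osteoclasts are the bone-resorbing cells that macrophages form by fusing under receptor activator of NF-κB ligand (RANKL).

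RNA was sequenced from macrophages that had been expanded from long-bone marrow, seeded at 15000 cells per well and kept for 3 or 5 days. They received macrophage colony-stimulating factor (M-CSF) alone, at a dose not given in the sources used here, or M-CSF at 30 ng/mL with RANKL at 50 ng/mL. Control cells carried the transgene allele Rosa26-Runx1tg/+ without Cre, although their labels call them wild type, and the other cells were LysM-Cre;Rosa26-Runx1tg/+, in which Cre is made from the lysozyme 2 gene of myeloid cells. All 8 groups (2 genotypes, 2 media, 2 days) held 3 libraries and carried the transgene allele, and the ages and sexes of the mice are not in the labels. No label says whether the libraries of a group came from separate animals or cultures, so the p-values measure only the spread between these samples. That spread may be technical in the control groups, while the Runx1-labelled groups differ within themselves in sex-linked RNA, as given next, and so hold more than 1 animal.

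Library totals ran from 18975750 to 36523995 counts, so that 1 read was worth 0.0286 to 0.0542 CPM (counts scaled to 1e6 per library, after TMM scaling). Runx1 itself was not called higher in the libraries labelled Runx1 overexpression, with log2 differences of 0.12, 0.00, 0.17 and 0.23 (adjusted p = 1 in all 4 comparisons), so these are called the Runx1-labelled libraries. The label gives osteoclast as the cell type of every sample, but 8 osteoclast markers summed to 38.2 to 65.2 CPM with M-CSF alone and to 34860 to 57800 CPM with RANKL. Markers of macrophages (6 genes) summed to 6642 to 8494 CPM without and 2930 to 4505 CPM with RANKL, and 5 markers of erythroid cells and megakaryocytes to 192 to 1529 CPM without and 13.7 to 88.8 CPM with it. Lymphocyte markers (8 genes) summed to 1.17 to 21.01 CPM, with Cd3e and Cd3g at 0 counts. Mitochondrial counts were 1.52% to 2.42% in M-CSF and 3.15% to 4.57% with RANKL. The part of the marker and mitochondrial differences in the results on RANKL was not tested. The Runx1-labelled libraries of number 3 held 542 to 847 counts of Y-linked genes and 2 to 12 counts of Xist, against 0 or 1 and 14963 to 28379 in the other libraries. At day 3 the control libraries of number 1 and the Runx1-labelled libraries of number 2 stood apart within their groups: the proteasome genes took 0.383% and 0.409% of the counts in M-CSF, against 0.461% to 0.495% in the other day 3 libraries in M-CSF.

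With RANKL, proteasome genes changed in both directions, and at day 5 the immunoproteasome subunits and the PA28 genes were lower in both genotypes, while the assembly chaperone Psmd10 had the largest rise at both days. At day 3 in control cells, 17 of the 49 genes were higher with RANKL (34.7%) and 6 were lower (12.2%), where 29.5% of all 15035 genes tested were higher and 29.7% lower (59.1% either way). At day 5 in control cells, 11 were higher (22.4%, background 26.4%) and 7 lower (14.3%, background 23.1%, 49.4% either way). In Runx1-labelled cells, 12 were higher and 6 lower at day 3 (backgrounds 29.1% and 30.1%, 59.2% either way), and 14 were higher and 8 lower at day 5 (backgrounds 27.5% and 24.9%, 52.4% either way). The shares that were higher thus lay near those of all genes. Fewer of the set than of all genes were lower. The median log2 fold changes of the set were 0.19, 0.12, 0.07 and 0.19 in the same order, beside -0.03, 0.03, -0.02 and 0.03 over all genes. The count of 17 fell to 10 without control library 1 of day 3 in M-CSF and was 19 without all 4 of the day 3 libraries that stood apart. At day 5 the 11 in control cells became 7 without M-CSF library 1, without M-CSF library 2 or without RANKL library 3. The 14 in Runx1-labelled cells became 9 without M-CSF library 1 or 2 and 8 without RANKL library 3. In bulk samples such as these, fewer cells of a type and less RNA per cell cannot be told apart.

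**Figure D1:**
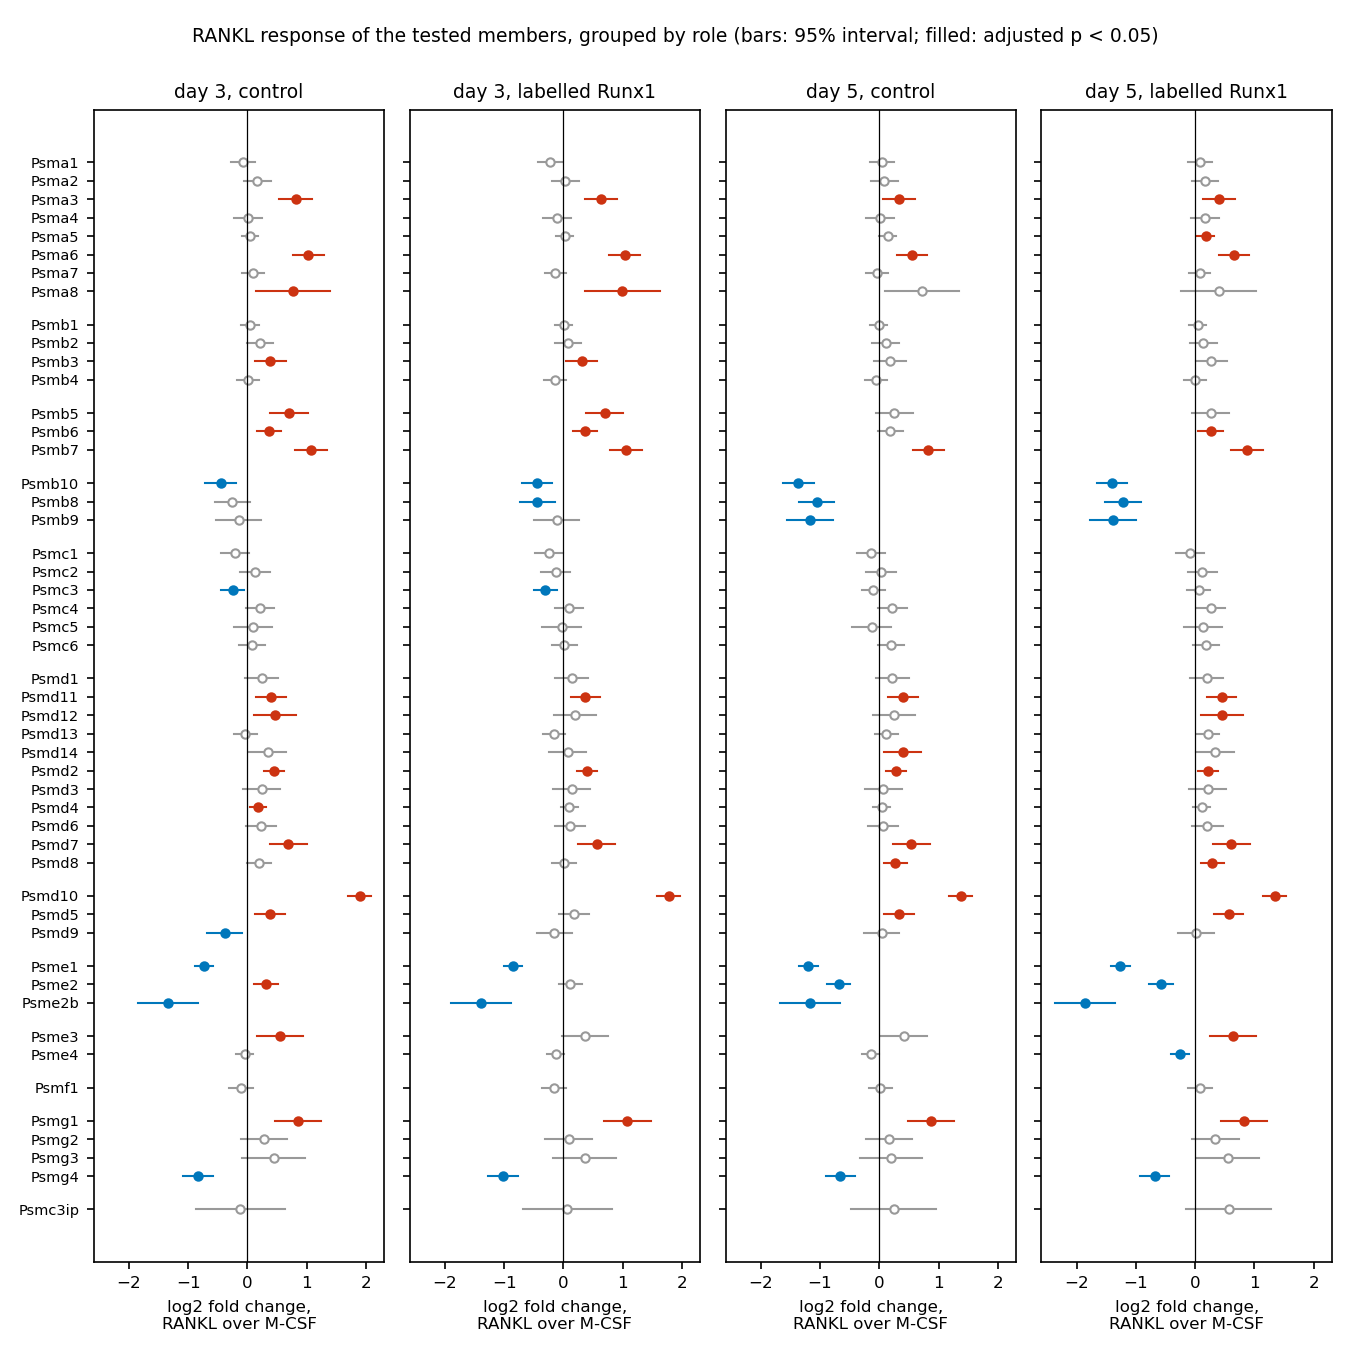
Log2 fold change of RANKL over M-CSF alone (x axis) for the 49 tested genes (y axis, grouped by role) at days 3 and 5 in control and Runx1-labelled cells, with 95% intervals. Filled red and blue points passed an adjusted p of 0.05. Psmb8, Psmb9 and Psmb10 lie to the left at day 5 (-1.06, -1.17 and -1.36 in control cells), and Psmd10 lies farthest to the right in all 4 panels.

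All 3 standard catalytic subunits rose with RANKL at day 3 in both genotypes, and Psmb7 had the largest change of the 3 at day 5. Psmb7 (chr2:38588036-38644087, minus strand; positions are those of the table and match GRCm38) had 58.9, 76.9 and 81.6 CPM in control cells in M-CSF at day 3 and 132, 164 and 162 CPM with RANKL. The groups did not overlap, and the log2 fold change was 1.08 ± 0.13 (SE, n = 3 libraries per group, adjusted p = 3.14e-07). On day 5 Psmb7 had 75.2, 80.3 and 75.7 CPM without and 133, 136 and 141 CPM with RANKL, again with no overlap (0.83 ± 0.13, adjusted p = 1.41e-05). In Runx1-labelled cells the changes were 1.05 and 0.87. The exons of Psmb7 share 405 bases (11.8% of its exon length) with Nek6 on the other strand, and the strand setting of the counting is not given. Nek6 fell by 3.09 on the log2 scale at day 3 and fell by 2.17 at day 5 in control cells, opposite to Psmb7.

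Psmb5 (chr14:54614119-54618022, minus strand) stood at 61.9, 94.5 and 97.02 CPM in control M-CSF libraries of day 3 and at 118, 143 and 151 CPM with RANKL, a rise of 0.70 ± 0.15 (adjusted p = 0.000423). The first M-CSF library, 1 of those that stood apart, was the low one; without it and the other 3 the rise was 0.61. By day 5 the M-CSF libraries had reached 125, 117 and 129 CPM against 152, 142 and 147 CPM with RANKL, and the difference was 0.25 ± 0.15 (adjusted p = 0.177, not called). Those groups did not overlap. Psmb6 (chr11:70525367-70527858, plus strand) moved least of the 3, from 103, 121 and 127 to 142, 154 and 155 CPM at day 3 (0.37 ± 0.10, adjusted p = 0.00361). At day 5 it had 114, 115 and 123 and 129.9, 131 and 139.8 CPM (0.19, adjusted p = 0.133), which do not overlap but were not called. In Runx1-labelled cells Psmb5 changed by 0.70 at day 3 and had 0.26 at day 5 (adjusted p = 0.153), and Psmb6 had 0.37 and 0.26, both called although its groups overlap at day 3. With only the compared groups in the fit, the day 3 call of Psmb6 in those cells was lost (0.37, adjusted p = 0.0613). That fit gained calls at day 5 for Psmb5 (0.22, adjusted p = 0.00468) and Psmb6 (0.16, adjusted p = 0.0306) in control cells and for Psmb5 in Runx1-labelled cells (0.24, adjusted p = 0.027). The Psmb6 call at day 5 in those cells was lost in 5 of 6 fits that left out 1 library (values 0.19 to 0.30).

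Of the 3 immunoproteasome subunits, Psmb10 was lower with RANKL at day 3 in control cells, and all 3 were lower at day 5. Psmb8 and Psmb9 lie side by side with the peptide transporter genes Tap1 and Tap2 in the MHC class II region, and Psmb10 lies on another chromosome (chr8:105935735-105938444, minus strand). Psmb8 (chr17:34197721-34201454, plus strand) had 61.3, 64.04 and 63.7 CPM in control M-CSF libraries of day 3 and 57.00, 49.7 and 51.3 CPM with RANKL. All RANKL values were below, but the difference of -0.26 ± 0.14 (95% interval -0.55 to 0.04, adjusted p = 0.123) was not called. At day 5 the values were 92.8, 90.3 and 95.2 CPM in M-CSF and 40.2, 41.2 and 52.4 CPM with RANKL, so that Psmb8 was 2.08-fold lower (-1.06 ± 0.14, adjusted p = 2.6e-06). The M-CSF libraries were higher at day 5 than at day 3 and the RANKL libraries were not.

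Psmb10 was lower at both days. Its values in control cells were 61.5, 53.7 and 56.1 CPM in M-CSF and 45.6, 41.5 and 37.8 CPM with RANKL at day 3 (-0.45 ± 0.12, adjusted p = 0.00319). At day 5 they were 80.96, 80.4 and 92.8 and 28.3, 32.4 and 38.02 CPM (-1.36 ± 0.12, 2.57-fold lower, adjusted p = 9.99e-09), and the groups did not overlap at either day. Psmb9 (chr17:34181988-34187764, minus strand) at day 3 had 39.2, 35.9 and 30.6 CPM in M-CSF and 39.9, 28.8 and 26.4 CPM with RANKL, which overlap (-0.15 ± 0.18, 95% interval -0.53 to 0.23, adjusted p = 0.496). At day 5 it had 34.97, 34.9 and 40.1 CPM without and 14.4, 14.9 and 19.5 CPM with RANKL, a 2.25-fold lower level (-1.17 ± 0.19, adjusted p = 2.08e-05). Of the exon bases of Psmb9, 212 (5.79%) are shared with Tap1 on the other strand.

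In Runx1-labelled cells at day 5 all 3 were lower as well: Psmb8 from 102, 112 and 77.5 to 42.7, 48.4 and 34.6 CPM, a change of -1.22 ± 0.14 (adjusted p = 3.88e-07). Psmb9 went from 42.1, 41.1 and 32.1 to 15.6, 15.4 and 13.3 CPM (-1.38) and Psmb10 from 92.5, 89.7 and 78.6 to 35.1, 29.9 and 33.5 CPM (-1.40). The M-CSF and RANKL values did not overlap for any of the 3. At day 3 Psmb8 fell by 0.44 on the log2 scale (adjusted p = 0.0114) and Psmb10 fell by 0.44 (adjusted p = 0.00375), while Psmb9 had -0.12 (adjusted p = 0.604). Both day 3 calls were lost without the 4 Runx1-labelled libraries of number 3, where Psmb8 had -0.33 (adjusted p = 0.0575) and Psmb10 -0.27 (adjusted p = 0.144). That of Psmb8 was lost also without the 4 day 3 libraries that stood apart (-0.40, adjusted p = 0.0634) and without Runx1-labelled library 3 of day 3 in M-CSF (-0.34, adjusted p = 0.0618).

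**Figure D2:**
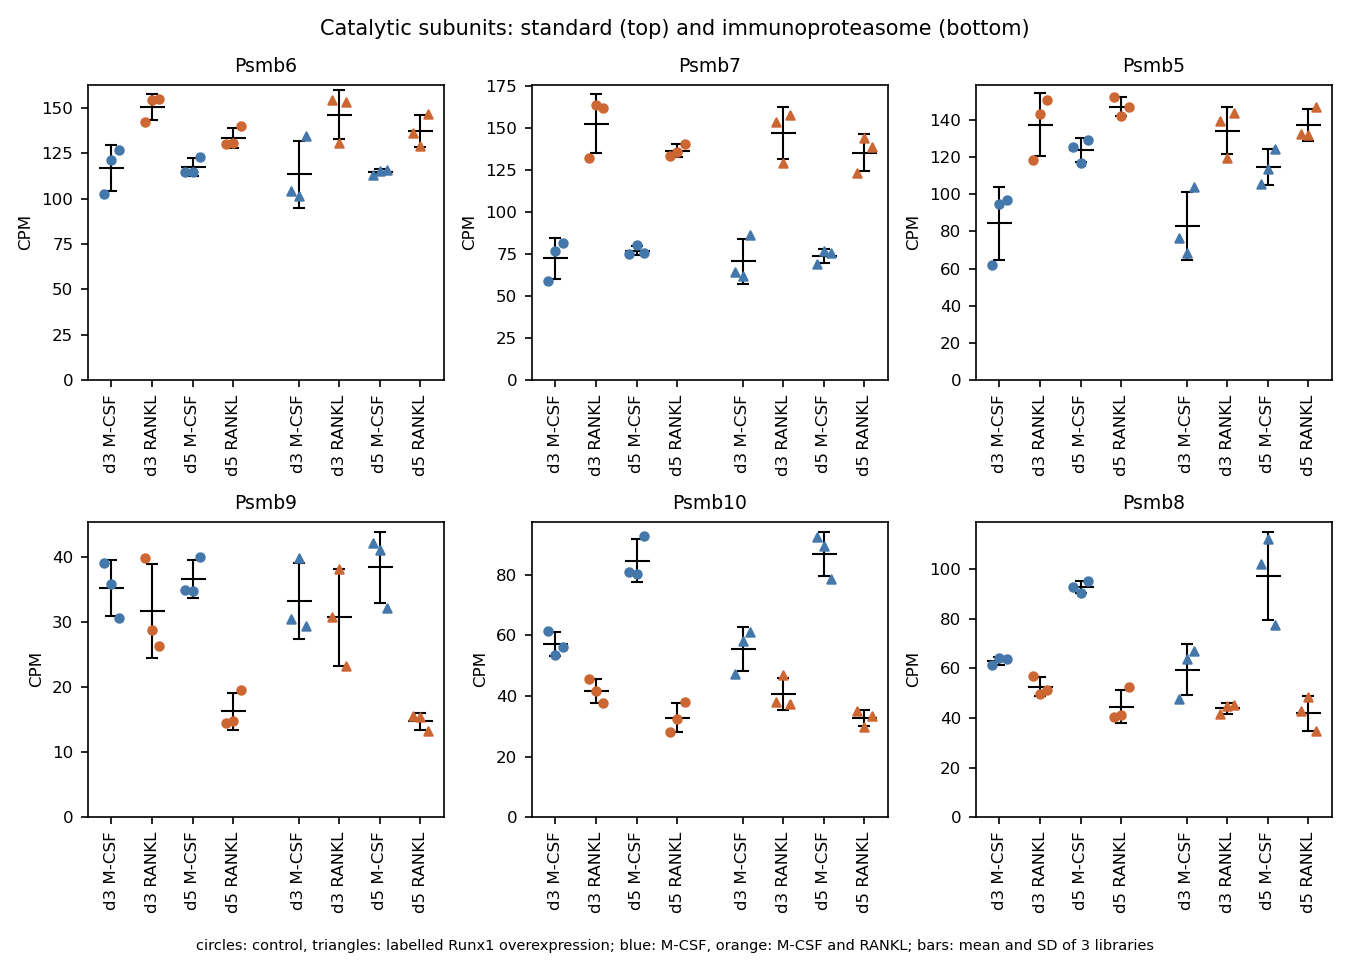
Level in CPM (y axis, from 0) of the standard subunits Psmb6, Psmb7 and Psmb5 and, beneath each, its immunoproteasome counterpart, in every library of the 8 groups (x axis), with mean and SD. At day 5 the RANKL libraries of Psmb8, Psmb9 and Psmb10 sit below all M-CSF libraries of that day, and those of Psmb5, Psmb6 and Psmb7 sit above. Of the latter only Psmb7 was called in both genotypes.

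The summed RNA of the 6 macrophage markers moved with the medium, as given above. Of the 6, Cd68 did not follow the sum. Its mean in control cells was 1135 CPM without and 1385 CPM with RANKL at day 3, and 1421 and 1315 CPM at day 5. In Runx1-labelled cells it was 1116 and 1466 CPM, then 1354 and 1403 CPM. The other markers were lower with RANKL. The part of these markers in the lower Psmb8, Psmb9 and Psmb10 was not tested. Markers of dendritic cells (5 genes, 6.70 to 33.2 CPM summed over all libraries) and of neutrophils (6 genes, 21.6 to 74.8 CPM) were low. The neutrophil sums were 35.8 to 74.8 CPM in M-CSF and 21.6 to 48.2 CPM with RANKL.

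Per kilobase of exon, which allows levels of different genes to be compared, the standard subunits were the more abundant in 2 of the 3 pairs under every condition. In control M-CSF libraries of day 5 the mean level was 138 CPM per kb for Psmb5 and 33.9 for Psmb8, and 62.7 for Psmb6 and 10.02 for Psmb9. Psmb10, at 49.7 CPM per kb, exceeded Psmb7 at 22.5 there. With RANKL that order turned, with 19.3 CPM per kb for Psmb10 and 39.96 for Psmb7. The log2 ratio of Psmb10 over Psmb7 was 1.11, 1.01 and 1.30 in the 3 control M-CSF libraries of day 5 and -1.23, -1.06 and -0.88 in the RANKL libraries. It was above 0 in all 12 M-CSF libraries and below 0 in all 12 RANKL libraries of the study. At day 3 the sign in M-CSF depends, except in control library 1, on the division by exon length (1705 bases for Psmb10 and 3421 for Psmb7). In undivided counts, control M-CSF libraries of day 3 had 1319, 1152 and 1391 for Psmb10 and 1263, 1649 and 2025 for Psmb7. Those of day 5 had 1623, 1484 and 1801 for Psmb10 and 1508, 1482 and 1469 for Psmb7. Runx1-labelled M-CSF libraries of day 5 had 1911, 2103 and 1663 for Psmb10 and 1432, 1805 and 1598 for Psmb7. At day 5 Psmb10 was thus the higher in each M-CSF library also without the division. The ratio is formed within a library and so does not depend on its scaling. The exon bases Psmb7 shares with Nek6 are in it.

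Summed over the 3 pairs, the immunoproteasome subunits made up 32.9, 25.2 and 24.4% of the summed catalytic subunit level per kb in control M-CSF libraries of day 3 and 19.2, 14.8 and 13.9% with RANKL. At day 5 the shares were 29.03, 29.5 and 30.2% and 11.3, 12.5 and 14.3%. In Runx1-labelled cells the means were 26.99 ± 3.94% (SD) and 15.3 ± 2.73% at day 3, and 31.6 ± 3.78% and 12.7 ± 1.26% at day 5. M-CSF and RANKL libraries did not overlap in any of the 4 comparisons. The mean of the 3 log2 ratios differed between RANKL and M-CSF by -1.02 at day 3 and -1.63 at day 5 in control cells, and by -1.05 and -1.79 in Runx1-labelled cells. These differences are given as a description, since 3 libraries against 3 allow no exact two-sided p below 0.1. Within day 3, the libraries that stood apart had the highest shares of their groups (32.9% and 31.5% in M-CSF, 19.2% and 18.4% with RANKL).

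**Figure D3:**
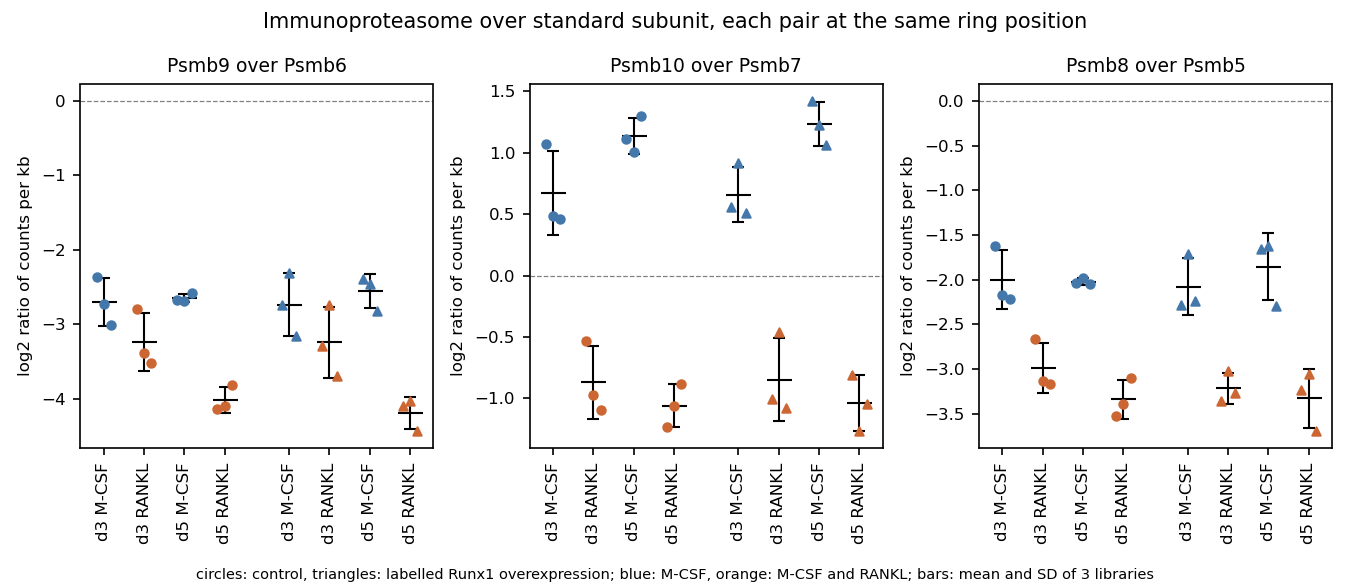
Log2 ratio of the counts per kb of each immunoproteasome subunit over the standard subunit it replaces (y axis), in every library of the 8 groups (x axis), with mean and SD and a dashed line at equal levels per kb. Psmb10 over Psmb7 lies above the line in M-CSF and below it with RANKL, and the other pairs lie below the line throughout.

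The sequences upstream of the RefSeq start sites of Psmb9, Psmb8, Psmb5 and Psmb6 are shown because the 2 kinds of catalytic subunit moved apart under RANKL. Psmb10 is not shown: its promoter was searched and held none of the motifs given below. Psmb7 is not shown because no promoter matched its symbol. They come from RefSeq on GRCm38.p6, read 5′ to 3′ on the strand of the gene and ending at the base before its start site, at chr17:34187331-34187555 on the minus strand, chr17:34197945-34198194 on the plus strand, chr14:54617996-54618245 on the minus strand and chr11:70525107-70525356 on the plus strand. Capitals mark the motif matches described after them.
Psmb9: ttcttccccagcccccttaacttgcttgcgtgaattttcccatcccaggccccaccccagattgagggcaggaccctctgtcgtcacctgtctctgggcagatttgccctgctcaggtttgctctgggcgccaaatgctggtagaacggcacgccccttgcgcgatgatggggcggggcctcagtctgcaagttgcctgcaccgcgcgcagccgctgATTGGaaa
Psmb8: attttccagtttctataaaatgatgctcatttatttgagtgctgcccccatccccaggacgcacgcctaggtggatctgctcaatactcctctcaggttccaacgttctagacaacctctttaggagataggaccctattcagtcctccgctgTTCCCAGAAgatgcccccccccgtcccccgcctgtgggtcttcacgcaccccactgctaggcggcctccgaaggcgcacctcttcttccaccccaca
Psmb5: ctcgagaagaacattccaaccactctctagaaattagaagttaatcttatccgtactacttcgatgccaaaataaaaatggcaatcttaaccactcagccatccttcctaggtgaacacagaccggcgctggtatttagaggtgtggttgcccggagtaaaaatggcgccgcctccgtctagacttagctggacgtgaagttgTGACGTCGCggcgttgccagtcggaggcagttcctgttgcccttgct
Psmb6: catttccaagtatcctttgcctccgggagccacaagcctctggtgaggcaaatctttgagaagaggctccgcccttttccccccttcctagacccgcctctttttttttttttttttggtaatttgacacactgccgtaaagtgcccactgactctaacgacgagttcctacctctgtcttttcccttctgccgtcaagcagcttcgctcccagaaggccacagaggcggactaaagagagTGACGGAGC
The Psmb9 segment is the whole stretch between its RefSeq start site and that of Tap1, which is read the other way 226 bases off. RefSeq start sites differ from the gene ends of the count table. The Psmb9 and Psmb8 segments lie within the spans counted for those genes (chr17:34181988-34187764 and chr17:34197721-34201454). That of Psmb5 overlaps the span of its gene in part. Short motifs were searched on both strands in windows of 300 bases around the start sites, from 250 bases before to 50 after, of 32851 promoters and of the 45 that matched 42 of the 50 genes by symbol. The interferon-stimulated element (GAAA and GAAA with 2 bases between) was in 3.44% of all promoters and 11.1% of those of the set, none of them of Psmb8, Psmb9 or Psmb10. The promoters of the set that held it were those of Psmb3, Psmd4, Psmd9, Psme1 and Psmg4. Psme1 held it 9 bases after its start as TTTCGCTTTC. The STAT-binding form TTCNNNGAA was in 8.3% of all and 6.67% of the set, and Psmb8 held it 97 bases before its start as TTCCCAGAA. The core of the antioxidant response element, TGACNNNGC, was in 12.4% of all and 13.3% of the set, and Psmb5 held it 47 bases before its start as TGACGTCGC and Psmb6 9 bases before as TGACGGAGC. The NF-κB form (GGGA and CC with 4 bases between) was in 20.7% and 24.4%, and CCAAT in 37.4% and 33.3%, with Psmb9 holding the latter (as ATTGG) 8 bases before its start. A match is a description of these letters only.

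The genes of the activator PA28, a ring that opens the 20S core without ATP and is also made under interferon, were lower with RANKL at day 5, and Psme1 already at day 3. Psme1 (the alpha subunit; chr14:55578123-55581529, plus strand) had 99.5, 97.3 and 99.9 CPM in control M-CSF libraries of day 3 and 64.3, 59.3 and 54.7 CPM with RANKL (-0.73 ± 0.08, adjusted p = 3.91e-08). At day 5 it had 137, 129.9 and 139.8 and 57.1, 56.7 and 63.2 CPM (-1.20 ± 0.08, adjusted p = 4.72e-11), and in Runx1-labelled cells the changes were -0.85 and -1.26. The groups were apart in each comparison. Psme2 (the beta subunit; chr14:55587441-55591113, minus strand) went the other way first, with 88.3, 92.3 and 89.6 CPM in M-CSF and 114, 112 and 109.5 CPM with RANKL at day 3 (0.31 ± 0.10, adjusted p = 0.00754). At day 5 it was lower with RANKL, with 149, 129.6 and 151 against 80.4, 85.3 and 101 CPM (-0.69 ± 0.10, adjusted p = 3.94e-06). In Runx1-labelled cells Psme2 had 0.12 at day 3 (adjusted p = 0.308, not called) and fell by 0.57 on the log2 scale at day 5. Psme2b, a near-identical copy of Psme2, was lower in all 4 comparisons (-1.34, -1.17, -1.39 and -1.86), at 15.99, 14.6 and 13.3 CPM against 8.31, 4.18 and 4.74 CPM in control cells at day 3. Its counts are uncertain, since reads of the copies may have been split between them.

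Neither of the other activators was called lower in control cells. Psme3, the gamma ring found in the nucleus, had 58.8, 76.8 and 104 CPM in control M-CSF libraries of day 3 and 94.00, 119.7 and 138 CPM with RANKL, which overlap (0.55 ± 0.19, adjusted p = 0.0163, called higher). It was also called higher at day 5 in Runx1-labelled cells (0.63, adjusted p = 0.00755), with 0.42 (adjusted p = 0.0681) at day 5 in control cells and 0.37 (adjusted p = 0.0996) at day 3 in Runx1-labelled cells. Psme4, the single-chain activator PA200, was called only at day 5 in Runx1-labelled cells, where it fell by 0.26 on the log2 scale. Psmf1, which binds and inhibits the core, was called in none of the 4 comparisons, with log2 fold changes of -0.11, 0.02, -0.16 and 0.08.

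The 32 genes counted as standard subunits were 8 alpha, 4 non-catalytic beta, 3 catalytic, 6 ATPases and 11 non-ATPases of the 19S cap. The alpha genes include Psma8, which is typical of testis, was low here and is among those higher at day 3. Of the 32, 12 were higher and 1 lower with RANKL at day 3 in control cells, and 8 higher and 0 lower at day 5. The shares higher, 37.5% and 25%, lay near the 29.5% and 26.4% of all genes. The shares lower, 3.12% and 0%, were below the 29.7% and 23.1% of all genes. In Runx1-labelled cells the counts were 10 and 1, then 10 and 0. The share higher there was 31.2% at both days, near the 29.1% and 27.5% of all genes. The shares lower there were 3.12% and 0%, below the 30.1% and 24.9% of all genes. Their median log2 fold changes were 0.21, 0.16, 0.09 and 0.21. The 19S ATPases, the motor of the cap, had 0 of 6 higher in any of the 4 comparisons. Psmc3 was the 1 lower, at day 3 (-0.25 in control and -0.31 in Runx1-labelled cells). The exons of Psmc3 share 215 bases (8.25%) with Slc39a13 on the other strand, which rose by 2.93 on the log2 scale at day 3 in control cells.

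The alpha ring, which gates the entry to the core, was led by Psma6. It had 71.9, 92.8 and 101 CPM in control M-CSF libraries of day 3 and 156, 196 and 190.2 CPM with RANKL (1.03 ± 0.12, adjusted p = 4.03e-07), and 121, 115 and 118 and 170.2, 167 and 181 CPM at day 5 (0.55 ± 0.12, adjusted p = 0.000761). Its M-CSF and RANKL libraries did not overlap at either day, and in Runx1-labelled cells it changed by 1.03 and 0.65. Psma3 rose in all 4 comparisons too (0.81, 0.33, 0.63 and 0.40). Psma1, the smallest of the ring at day 3, had -0.07 in control and -0.22 in Runx1-labelled cells, and Psma7, the smallest at day 5, had -0.04 and 0.07. None of these 4 values was called. Psma8, the alpha subunit typical of testis, was called higher at day 3 (0.77 and 0.997) from a level of 1.54, 1.63 and 2.62 CPM in control M-CSF libraries to 3.25, 3.20 and 3.50 CPM, the lowest of the tested subunits per kb. Its 0.72 at day 5 in control cells was the largest of the ring but was not called (adjusted p = 0.0543).

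Among the non-catalytic beta subunits, Psmb3 was called higher at day 3 (0.38 in control and 0.31 in Runx1-labelled cells) and in neither genotype at day 5 (0.18 and 0.27). Psmb4 stayed between -0.14 and 0.01 over the 4 comparisons and was not called. In the 19S cap, Psmd7, a partner of the deubiquitinase Psmd14, had 64.4, 80.4 and 96.9 CPM without and 103, 137 and 149 CPM with RANKL in control cells at day 3 (0.69 ± 0.15, adjusted p = 0.000536). It was higher in all 4 comparisons, with 0.54 at day 5 and 0.56 and 0.61 in Runx1-labelled cells. Psmd2, a scaffold of the cap's base, had 274, 319 and 338 CPM without and 405, 425 and 444 CPM with RANKL (0.45 ± 0.08, adjusted p = 7.35e-05), and Psmd11 of the lid rose by 0.40. Both were called in all 4 comparisons. Psmd14 itself was called only at day 5 in control cells (0.40, adjusted p = 0.0351). Psmd13 at day 3 (-0.04 and -0.15) and Psmd4, the ubiquitin receptor, at day 5 (0.04 and 0.11) were the smallest of the group and were not called there. The largest of the ATPases was Psmc4 (0.21, 0.22, 0.10 and 0.27), and the smallest at day 5 was Psmc1 (-0.13 and -0.08), all uncalled.

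The assembly chaperones held the largest rise of the set and a steady fall. Psmd10 (gankyrin, which binds the ATPase Psmc4 while the base of the cap is built and is also known to bind the retinoblastoma protein; chrX:140948429-140956728, minus strand) had 23.1, 24.6 and 23.1 CPM in control M-CSF libraries of day 3 and 88.2, 92.2 and 82.3 CPM with RANKL. It was thus 3.71-fold higher (1.89 ± 0.09, adjusted p = 7.09e-13). On day 5 Psmd10 had 21.8, 25.1 and 25.6 CPM without and 63.1, 60.2 and 65.2 CPM with RANKL (1.38 ± 0.09, adjusted p = 1.09e-10). The M-CSF values overlapped between the days, while those with RANKL were lower at day 5 than at day 3, and Runx1-labelled cells gave 1.78 and 1.34. Psmd5, another base chaperone, was called higher in 3 of the 4 comparisons (0.38, 0.33 and 0.56, with 0.18 at day 3 in Runx1-labelled cells). Psmd9, the remaining one, was lower at day 3 in control cells (-0.39, adjusted p = 0.0267) and was not called elsewhere.

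Of the chaperones that build the alpha ring in pairs, Psmg1 rose and Psmg4 fell. Psmg1 had 6.85, 11.3 and 12.6 CPM in control M-CSF libraries of day 3 and 17.3, 18.5 and 20.1 CPM with RANKL (0.86 ± 0.19, adjusted p = 0.000536), and it was higher in all 4 comparisons (0.88, 1.08 and 0.83 in the others). Its partner Psmg2 was called in none (0.28, 0.16, 0.09 and 0.34). Psmg4 had 14.9, 14.4 and 14.95 CPM without and 7.97, 7.59 and 9.20 CPM with RANKL (-0.84 ± 0.12, adjusted p = 4.03e-06) and was lower in all 4 comparisons (-0.66, -1.02 and -0.68 in the others). Psmg3, with which Psmg4 pairs, was called in none (0.44, 0.21, 0.36 and 0.56). Whether the partners differ was not tested.

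**Figure D4:**
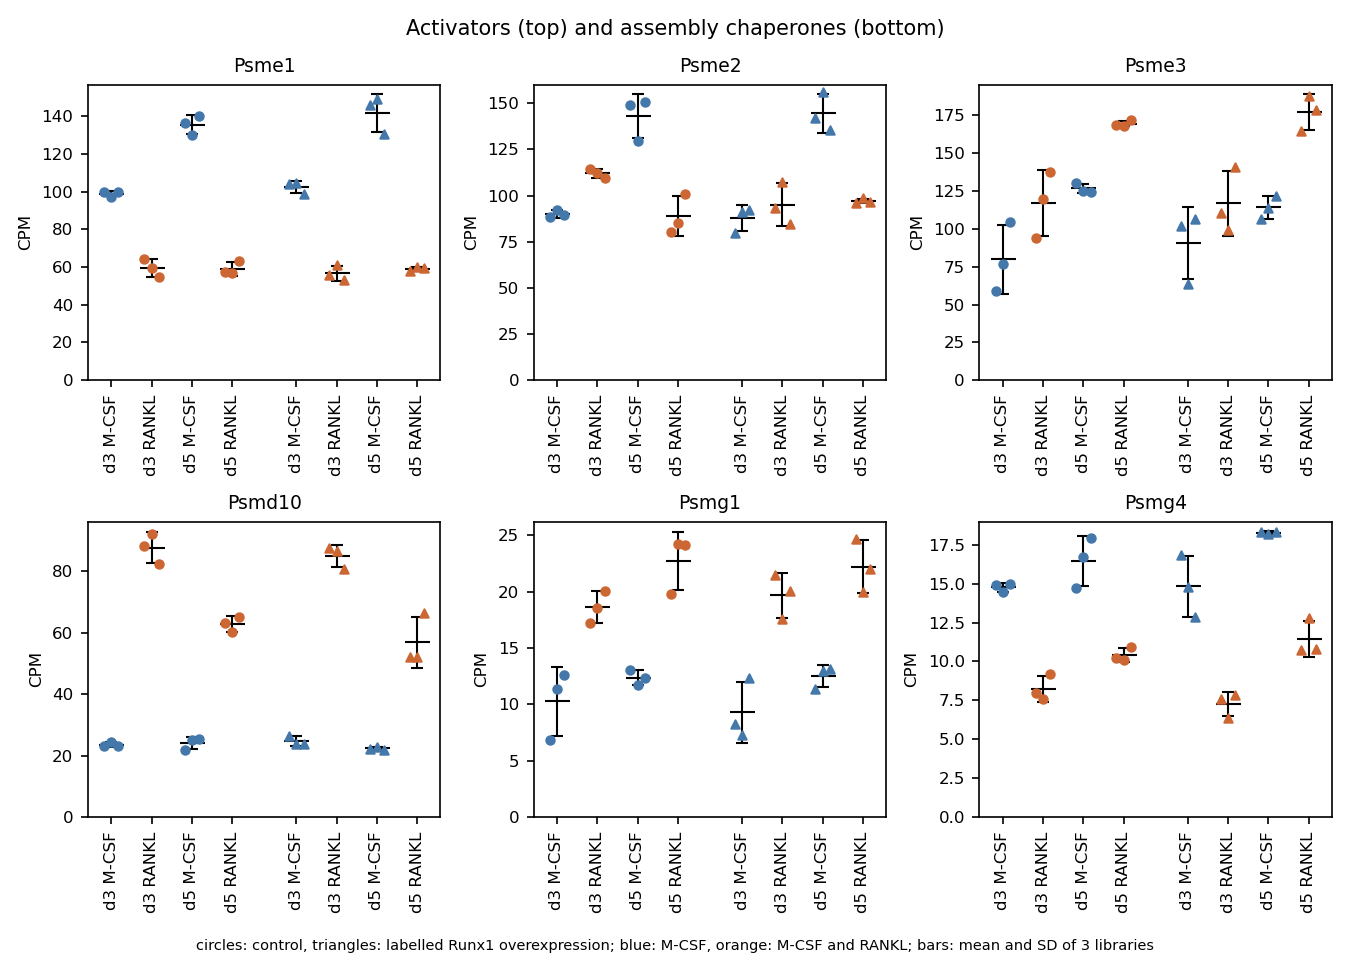
Level in CPM (y axis, from 0) of the activators Psme1, Psme2 and Psme3 and the assembly chaperones Psmd10, Psmg1 and Psmg4 in every library of the 8 groups (x axis), with mean and SD. Psme1 and Psmg4 lie lower with RANKL at both days and Psmd10 and Psmg1 higher, while Psme2 is higher with RANKL at day 3 in control cells and lower at day 5.

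Between days 3 and 5 in M-CSF alone, Psmb8 and Psmb10 of the 3 immunoproteasome genes and Psme1 and Psme2 of the 3 PA28 genes rose in both genotypes. In control cells 9 of the 49 genes were higher at day 5 and 0 lower (backgrounds 12.2% and 11.5%, 23.7% either way), namely Psme2, Psme1, Psmb10, Psmb8, Psmb5, Psme3, Psmc5, Psma6 and Psma3. Psme2 rose by 0.67 ± 0.10 (adjusted p = 5.15e-05), Psmb10 by 0.57 ± 0.12 (adjusted p = 0.00237) and Psmb8 by 0.56 ± 0.14 (adjusted p = 0.00758). Psmb9 had 0.06 (adjusted p = 0.859) and Psme2b -0.33 (adjusted p = 0.32). Stromal and osteoblast markers (6 genes, with Lepr at 0 counts in 1 group) summed to 7.44 to 28.2 CPM in the day 3 libraries and 12.8 to 298 CPM in those of day 5, and their part in the differences between days was not tested. In Runx1-labelled cells 5 were higher and 0 lower (backgrounds 7.17% and 7.08%, 14.3% either way): Psme2, Psme1, Psmb10, Psmb8 and Psmb5, with changes of 0.47 for Psmb5 to 0.72 for Psme2. The count of 9 in control cells was 4 without day 3 M-CSF library 1 and 14 without library 3. The count of 5 was 8 without Runx1-labelled day 3 M-CSF library 3.

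With RANKL the same days gave 4 genes higher and 4 lower in control cells (backgrounds 14.1% and 12.7%, 26.8% either way). Psmb9 fell by 0.96 on the log2 scale (SE 0.19, adjusted p = 0.000798), from 39.9, 28.8 and 26.4 to 14.4, 14.9 and 19.5 CPM, which do not overlap. The other 3 lower were Psmd10 (-0.48), Psmb10 (-0.34, adjusted p = 0.047) and Psme2 (-0.33), and the 4 higher were Psme3 (0.53), Psmg4 (0.34), Psmc4 (0.31) and Psmf1 (0.31). In Runx1-labelled cells 9 were higher and 3 lower (backgrounds 17.6% and 15.6%, 33.2% either way), the latter being Psmb9 (-1.06), Psmd10 (-0.58) and Psme4 (-0.22). Of the 9 higher, Psmg4 (0.65) and Psme3 (0.60) had the smallest p among proteasome genes, and the 9th is Psmc3ip (1.30), which is not a proteasome gene. Both counts depend on single libraries: the 8 in control cells ranged from 2 to 8 over the 6 fits that each left out 1 library (2 to 4 in all but that without day 3 library 3). The 12 in Runx1-labelled cells became 7, 4 and 19 without day 3 library 1, 2 or 3, and 6 without day 5 library 2 or 3.

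The RANKL response itself differed between the days for 6 genes in each genotype, and these 6 were shared. In control cells 6 of the 49 had a lower response at day 5 than at day 3 and 0 a higher one (backgrounds 6.73% and 7.26%), and in Runx1-labelled cells also 6 and 0 (7.13% and 8.09%). They were Psmb8, Psmb9, Psmb10, Psme1, Psme2 and Psmd10. For Psmb9 the log2 fold changes of control cells differed by -1.02 ± 0.26 (day 5 minus day 3, adjusted p = 0.0104), and for Psme2 it went from a rise to a fall (difference -1.002 ± 0.14, adjusted p = 2.24e-05). Psmb10 differed by -0.91 ± 0.17 (adjusted p = 0.00108) and Psmb8 by -0.80 ± 0.20 (adjusted p = 0.00955). Of the standard catalytic subunits, Psmb5 had -0.45 (adjusted p = 0.175), Psmb6 -0.18 and Psmb7 -0.25, and none of the 32 standard subunits was called. The difference for Psme1 (-0.46 in control and -0.41 in Runx1-labelled cells) was lost when no filter on low counts was set (adjusted p = 0.0682 and 0.139), and in Runx1-labelled cells also with total-count scaling (-0.30, adjusted p = 0.0539). That for Psmb8 in Runx1-labelled cells was lost with only the compared groups in the fit (-0.79, adjusted p = 0.0516). Without the 4 day 3 libraries that stood apart the counts were 8 and 10.

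Genotype, the contrast the study was built on, gave no call among these genes. In each of the 4 comparisons of Runx1-labelled with control cells 0 of the 49 passed, where 0% of all 15035 genes passed (edgeR). At an unadjusted p under 0.05 there were 1, 0, 1 and 0 of them (day 3 and day 5 in M-CSF, then day 3 and day 5 with RANKL), and DESeq2 called 0. The gene of smallest p at day 3 in M-CSF was Psme4 (0.17 ± 0.07, adjusted p = 1) and at day 3 with RANKL Psme2 (-0.24 ± 0.10, adjusted p = 1), with 114, 112 and 109.5 CPM in control and 93.1, 107 and 84.4 CPM in Runx1-labelled libraries. The 95% intervals for the immunoproteasome subunits at day 5 with RANKL were -0.39 to 0.20 for Psmb8, -0.53 to 0.24 for Psmb9 and -0.26 to 0.26 for Psmb10. The RANKL response was not called different between genotypes for any of the 49 (0 called at each day, background 0%, 0 at an unadjusted p under 0.05); a p that misses the threshold does not show equal responses.

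Genes that work with the proteasome but carry other names mostly rose or did not pass. Of 19 tested, 8 were higher and 0 lower at day 3 in control cells, and 7 higher and 2 lower at day 5 (7 and 1, then 10 and 3 in Runx1-labelled cells). The shares higher in control cells were 42.1% and 36.8%, beside 29.5% and 26.4% of all genes. In Runx1-labelled cells 29.1% and 27.5% of all genes were higher, and 30.1% and 24.9% lower. Their median log2 fold changes were 0.16 and 0.23 in control cells, beside -0.03 and 0.03 over all genes. Zfand5, a zinc finger protein that binds the proteasome and stimulates it, led them with 85.7, 86.9 and 99.4 CPM without and 415, 409 and 406 CPM with RANKL at day 3 (2.18 ± 0.08, adjusted p = 2.47e-14) and 1.25 at day 5. Rad23b, a shuttle for tagged substrates, rose by 0.92 and Nploc4, an adaptor of the p97 unfoldase, by 0.66. Pomp, which matures the 20S core and is needed for immunoproteasomes, had 0.01 at day 3 and fell by 0.40 on the log2 scale at day 5 (adjusted p = 0.00014), from 140.5, 134 and 150.2 to 109, 104 and 108 CPM. Of 6 ubiquitin and E1 genes, 2 were higher and 1 lower at day 3 in control cells (29.5% and 29.7% of all genes). Ubb was lower (-0.51), the fusion gene Rps27a was among the higher (0.33) and 3 were not called (median -0.16). At day 5 in control cells 0 were higher and 2 lower (26.4% and 23.1% of all genes).

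Nfe2l1, the transcription factor that raises proteasome genes when the proteasome is impaired, was called in none of the 4 RANKL comparisons (0.05, -0.03, 0.16 and -0.04). Its values at day 3 in control cells were 232, 265 and 245 CPM without and 261, 272 and 238 CPM with RANKL, which overlap. Of 15 genes listed around it (its processing enzymes, the related Nfe2l2 with its inhibitors, small Maf partners and antioxidant targets), 2 were higher and 11 lower at day 3 in control cells, and 3 higher and 6 lower at day 5, where 29.7% and 23.1% of all genes were lower (medians -0.92 and -0.31). The 2 higher at day 3 were Maff (3.15) and Ngly1 (1.22), the glycosidase that edits Nfe2l1. The 3 lower of smallest p were Gclm (-1.91), an enzyme of glutathione synthesis, Nfe2l2 (-1.15), the oxidative stress factor related to Nfe2l1, and its inhibitor Keap1 (-1.08).

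Immunoproteasomes serve MHC class I, and the 12 genes listed for that pathway were mostly lower: 7 of them at day 3 (3 higher) and 10 at day 5 (1 higher) in control cells, with the same counts in Runx1-labelled cells. Of all genes 29.7% and 23.1% were lower in control cells. Their median log2 fold changes were -0.58 and -0.70 in control cells, beside -0.03 and 0.03 for all genes. The transporter genes next to Psmb8 and Psmb9 did not follow them at day 3: Tap2 had 41.4, 39.4 and 37.7 CPM without and 194, 149 and 116 CPM with RANKL (1.95 ± 0.16, adjusted p = 1.16e-09). At day 5 Tap2 was still higher (0.88, 41.4, 38.2 and 41.8 against 69.3, 73.1 and 80.4 CPM). Tap1, which shares its start region with Psmb9, had 76.6, 59.9 and 49.4 CPM without and 129, 93.4 and 67.2 CPM with RANKL at day 3, called higher although the groups overlap (0.64 ± 0.24, adjusted p = 0.0248). At day 5 it was lower like Psmb9, with 89.1, 77.3 and 80.97 against 48.1, 49.3 and 54.7 CPM (-0.70 ± 0.24, adjusted p = 0.0182). Nlrc5, the activator of class I genes, fell by 2.01 on the log2 scale at day 3, Erap1, the peptide trimming enzyme, fell by 1.34 and B2m, the light chain, fell by 1.08.

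The 13 interferon signalling genes tested (of 15 listed, Ifnb1 and Ifng being below the filter) had 10 lower and 1 higher at day 3 and 12 lower and 0 higher at day 5 in control cells, with the same counts in Runx1-labelled cells. Beside the 29.7% and 23.1% of all genes that were lower, 76.9% and 92.3% of the list were lower in control cells. The medians were -0.84 and -0.90 in control cells. Irf8, a factor of macrophage and dendritic cells that falls early in osteoclast formation, had 261, 173 and 146 CPM in control M-CSF libraries of day 3 and 30.7, 19.3 and 17.3 CPM with RANKL (-3.10 ± 0.31, adjusted p = 3.95e-08). Stat2 fell by 2.26 and Irf9 fell by 2.01 on the log2 scale there, and the receptor chain Ifngr2 was the 1 higher (0.56). Irf1, a factor through which interferon gamma raises the immunoproteasome genes, was not called at day 3 (0.06) and was lower at day 5. Irf1 had 44.8, 46.5 and 47.8 CPM without and 23.4, 23.4 and 27.6 CPM with RANKL at day 5 (-0.90 ± 0.23, adjusted p = 0.00304), and the groups did not overlap. In Runx1-labelled cells at day 5 it changed by -1.25. These genes were listed for their known link to the immunoproteasome, and their part in the lower Psmb8, Psmb9 and Psmb10 was not tested.

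Psmc3ip, the recombination factor that shares only its name with the set, was low (1.59, 4.43 and 5.60 CPM in control M-CSF libraries of day 3) and was called in none of the RANKL comparisons. Its exons share 385 bases (21.2%) with Mlx on the other strand. Psmc3ip and 4 other genes that share exon bases with a gene on the other strand, Psmb7, Psmb9, Psmc3 and Psmd13, were left out together. The RANKL counts in control cells were then 16 higher and 5 lower at day 3 and 10 and 6 at day 5. Genes with such overlaps that were kept include Psmb8 (498 bases with Gm20496), Psmd1 (252 with Htr2b) and Psmd9 (1849 with Gm26745). Those partners held 41, 794 and 0 counts over all libraries. Processed copies of Psmb5, Psmb6 and Psmb7 listed in the table held 0 to 4 counts over all libraries.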

How the data were processed

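Whole-number read counts per gene in 24 libraries were used as the authors deposited them. Per the submitters' processing notes the tools were STAR and DESeq2 and the build GRCm39; the counter, tool versions and strand setting are unstated. Of 54532 genes, 54495 identifiers were found in the GENCODE annotation of GRCm38 and 53585 (98.3%) had the same position there, so positions are those of GRCm38. 0 value columns were unmatched. Counts were tested with the quasi-likelihood test of edgeR 4.0.16 in R 4.3.3: filterByExpr (15035 genes, 27.6%), TMM scaling, robust dispersions and a coefficient for each of the 8 groups over all 24 libraries (16 residual degrees of freedom). Calls are at a Benjamini-Hochberg adjusted p under 0.05 over all genes tested, and SE values come from the log2 fold change and its F statistic. No pair of libraries in a group agreed within sampling noise. Depth was 18975750 to 36523995 counts per library.

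Comparisons were RANKL against M-CSF, genotype, day, and differences of the RANKL response. Genes named in full were the catalytic subunits, Psme1 and Psme2, the largest and smallest change of each role group, the genes called in the other comparisons and up to 3 of each pathway list per direction by p. Psmd2, Psmd11, Psmd14, Psma3, Psmd5, Psmg2 and Psmg3 were added after their values were seen. The genes and lists were chosen with earlier results of these data known. Alternatives were DESeq2 1.42.0, other scalings, no filter, fewer groups or libraries and a replicate block. The replicate numbers met the correlation rule for pairing (over 0.1 in all 3 pairs) in 1 comparison, RANKL at day 5 in Runx1-labelled cells. Some genes that the rule names are not reported here. The script was tested on simulated data.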

Additional observations from a re-analysis of the deposited data

Results flagged for a closer look

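The RANKL response differed between days 3 and 5 by a test of the difference itself (edgeR, adjusted over all genes) for the genes given here, as day 5 minus day 3 on the log2 scale. Among proteasome genes of control cells the differences were -0.91 for Psmb10, -0.80 for Psmb8, -1.02 for Psmb9, -0.51 for Psmd10, -0.46 for Psme1 and -1.002 for Psme2. In Runx1-labelled cells they were -0.96 for Psmb10, -0.78 for Psmb8, -1.27 for Psmb9, -0.44 for Psmd10, -0.41 for Psme1 and -0.69 for Psme2.

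Among the partner and Nfe2l1 genes of control cells, the differences were -0.41 for Pomp, -0.92 for Zfand5, -1.98 for Maff, 0.66 for Nfe2l2, 0.65 for Keap1 and 0.89 for Gclm. In Runx1-labelled cells they were -0.92 for Zfand5, -0.74 for Ngly1, -1.98 for Maff, 0.61 for Nfe2l2, 0.44 for Keap1 and 1.02 for Gclm. Of the MHC class I genes, Tap1 had -1.34, Tap2 -1.08 and Calr, a chaperone of class I loading, -1.46 in control cells, and -1.64, -1.25 and -1.21 in Runx1-labelled cells. Irf1 (-1.39) passed the test in Runx1-labelled cells; whether that differs from control cells was not tested here.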

How the results depend on the processing

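Signs were compared only for the catalytic subunits, Psme1, Psme2 and the mean log2 ratio of the pairs. The genes were compared in the RANKL response and its difference between days, the ratio in the RANKL response. The 1 of these results that changed sign was Psmb9 at day 3 in Runx1-labelled cells, which was not called (-0.12). It had 0.01 without the Runx1-labelled libraries of number 3. Over the fits that left out 1 library it ranged from -0.31 to 0.044, above 0 without M-CSF library 2 (0.034) or RANKL library 3 (0.044). The cause was not tested. DESeq2 left every count of calls within 1.5 times the reported one. With RLE scaling the day count with RANKL in control cells was 4 instead of 8. With total-count scaling, which moved the median of all genes to -0.11 on the log2 scale in the day 3 RANKL comparison of Runx1-labelled cells, 12 genes were lower there instead of 6, and the day counts of control cells were 5 in M-CSF and 5 with RANKL. Without a filter the day count with RANKL in control cells was 4. With only the compared groups in the fit, 20 genes were higher at day 5 with RANKL in control cells (11 reported) and 23 in Runx1-labelled cells (14 reported), and the day counts in M-CSF were 4 in control and 3 in Runx1-labelled cells. Without the 4 Runx1-labelled libraries of number 3, 3 genes were lower at day 3 and 8 higher at day 5 in Runx1-labelled cells, and the day count with RANKL in control cells was 5. Without the 4 day 3 libraries that stood apart, an alternative chosen after seeing the data, 10 genes differed in the RANKL response between days in Runx1-labelled cells, and Psmb5 was among them (-0.42, adjusted p = 0.0398).

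Over the fits that left out 1 library, the counts higher with RANKL ranged from 10 to 22 at day 3 and 7 to 9 at day 5 in control cells, and from 9 to 13 and 8 to 14 in Runx1-labelled cells. Those lower ranged from 4 to 7, 7 to 8, 6 to 9 and 8 to 8. The day counts ranged from 4 to 14 (M-CSF) and 2 to 8 (RANKL) in control cells and from 4 to 8 and 4 to 19 in Runx1-labelled cells. The counts of the difference between days ranged from 6 to 8 and from 5 to 8, and all genotype counts stayed at 0. No label ties a number to an animal, and 15 of 36 pairs of same-numbered libraries within a genotype correlated above 0.1, although 22 of 24 libraries correlated best with their own number. All 3 pairs were above 0.1 only for RANKL against M-CSF at day 5 in Runx1-labelled cells (0.21, 0.17 and 0.37). The values reported for that comparison, like all others, come from the fit without a replicate block and ignore any pairing. With a replicate block the counts higher with RANKL were 20, 13, 12 and 18, those lower 6, 7, 8 and 8, and the day counts 12, 9, 6 and 16. The block moved none of these counts by over 1.5 times and changed no call of the catalytic subunits, Psme1 or Psme2. It gave 7 and 7 for the difference between days and 0 for genotype. Genes under about 1 CPM rest on few reads at this depth, where 1 read is worth up to 0.0542 CPM.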

Other observations

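The day 3 libraries that stood apart differed from the others of their groups also in genes of the interferon and class I lists. Irf8 had 261, 173 and 146 CPM in control and 158, 258 and 145 CPM in Runx1-labelled M-CSF libraries of day 3, highest in control library 1 and Runx1-labelled library 2. Nlrc5 had 53.5, 39.5 and 30.2 and 38.6, 62.9 and 32.6 CPM in the same libraries, and Tap1 with RANKL had 129, 93.4 and 67.2 and 102, 119 and 70.8 CPM. Psmb7 was lowest in those 2 libraries among the day 3 M-CSF libraries, with 58.9, 76.9 and 81.6 and 64.5, 61.9 and 86.3 CPM.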
